A study of Mus musculus with 52 samples.

Results

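Mouse type 1 conventional dendritic cells (cDC1) exposed for 4 h to medium conditioned by BRAFV600E melanoma cells were compared directly with cDC1 exposed for 4 h to pure prostaglandin E2 (PGE2). The members were chosen by label: the 4 libraries titled as control BRAFV600E conditioned medium (control CM, replicates A to D) and the 4 titled as PGE2 (replicates A to D), 8 of the 52 libraries of the series. The question of the comparison was what the tumour cell medium added to, or did more weakly than, PGE2, whose synthesis genes the study also deleted in melanoma cells. All cells came from C57BL/6 bone marrow cultured for 14 days with FLT3L and GM-CSF and were sorted for CD103, and the growth factors were also present during every treatment. The PGE2 group received 100 ng/ml PGE2. The control CM group received medium of BRAFV600E melanoma cells labelled as control, and another group received medium of BRAFV600E melanoma cells that lacked both Ptgs1 and Ptgs2 (Ptgs-deficient CM). Neither the PGE2 concentration in the control medium nor the dilution of the media is given in the labels, so the doses of the 2 treatments cannot be set equal. Untreated cells at 4 h served as the baseline, and 8 further libraries treated with PGE2 after 5 µM of an EP1 or an EP3 antagonist served as a second set of PGE2 libraries. The labels call the letters biological replicates without saying whether they came from separate mice or cultures, so p-values measure only the spread between these libraries, which may be technical.

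PGE2 is made from arachidonic acid by the cyclooxygenases, which Ptgs1 and Ptgs2 encode, and a terminal synthase. It acts through the receptors EP1 to EP4, of which EP2 and EP4 raise cyclic AMP and thereby activate protein kinase A and the transcription factor CREB. cDC1 depend on the transcription factors IRF8 and BATF3, take up dying tumour cells and cross-present their antigens to CD8 T cells. NRF2 (gene Nfe2l2) is a transcription factor that is stabilised by oxidants and electrophiles, binds antioxidant response elements and raises enzymes that detoxify quinones, synthesise glutathione, supply NADPH and store iron.

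The control CM libraries held 228338 to 338231 counts and the PGE2 libraries 174587 to 324085, within a range of 42666 to 438491 over the 36 libraries at 4 h. The 2 shallow libraries were EP4 antagonist library A (42666 counts) and untreated library A (54107 counts), so the untreated baseline holds 1 of them. A level is given below in CPM, the depth-scaled count relative to the total of the tested genes in a library, and a count of 3, taken as the floor, was worth 9.38 to 19.1 CPM in these 8 libraries. All 23 cDC1 identity genes in the table had counts in both groups, and their summed level was 14343 to 15837 CPM with PGE2 and 16400 to 17397 CPM with control CM, without overlap. It was 14490 to 15373 CPM in untreated cells. Abundant members weigh most in this sum, and members moved both ways. Against untreated cells, of 22 tested, 2 were called higher and 12 lower with PGE2, and 2 higher and 9 lower with control CM. The shares of all genes were 5.21% and 3.35% with PGE2, and 4.81% and 2.75% with control CM. The macrophage and monocyte markers in the table (15, of which 4 were tested) summed to 1045 to 1310 CPM with PGE2 and 1091 to 1507 CPM with control CM, and Adgre1, Mertk, C1qa, Mrc1, Cd163 and Vcan were at 0 in both groups. Granulocyte and lymphocyte markers summed to at most 19.1 CPM in any of the 8 libraries. The 6 melanoma and melanocyte markers in the table summed to 33.0 to 56.2 CPM with PGE2 and 40.6 to 71.6 CPM with control CM. The sum was 6.61 to 52.4 CPM in untreated cells and 3.75 to 24.4 CPM with Ptgs-deficient CM. Of these markers Dct, Pmel, S100b and Mcam were at 0 in both groups, and the 1 tested, Kit, differed by 0.34 ± 0.41 on the log2 scale (SE, adjusted p = 0.973). Against untreated cells Kit was called higher both with pure PGE2 (1.70) and with control CM (2.04). Markers of cDC2 (10 in the table, 1 tested) summed to 32.5 to 108 CPM with PGE2 and 67.4 to 103 CPM with control CM, and plasmacytoid dendritic cell markers (12 in the table, 2 tested) to 141 to 242 CPM and 118 to 178 CPM respectively. In a PGE2 response score described further on, library B of the Ptgs-deficient CM group and library B of the EP3 antagonist group stood apart from their groups. None of the 8 control CM and PGE2 libraries did so. In bulk RNA, fewer cells of a type and less RNA per cell cannot be told apart.

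Control CM and PGE2 differed in few genes. Of 5754 genes tested in one edgeR quasi-likelihood model of all libraries at 4 h, 7 passed an adjusted p of at most 0.05 (0.122%): 2 were higher (0.0348%) and 5 lower (0.0869%) with control CM. Against untreated cells, more genes were called in the same model: 435 for control CM (7.56%, 277 higher and 158 lower) and 493 for PGE2 (8.57%, 300 higher and 193 lower). Under library totals in place of TMM scaling these splits were 228 higher and 240 lower for control CM, and 237 higher and 332 lower for PGE2. The median difference between control CM and PGE2 over all tested genes was 0.0056 on the log2 scale, and 313 genes (5.44%) had an unadjusted p under 0.05. The median standard error of a gene's log2 difference was 0.33, so in a typical gene only a difference of several times that size could pass at this depth. Under library totals the split between control CM and PGE2 was 3 higher and 3 lower. The count was 22 (7 higher, 15 lower) with only the compared groups in the model, 17 (2 higher, 15 lower) without the 2 libraries B named above, and 2 to 5 when each of the 8 libraries was left out in turn.

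The 5 genes that were lower with control CM were Creg1, Prdx1, Nqo1, Pgd and Abcc1. Each had a higher level with PGE2 than in untreated cells that passed the test, while none passed it for control CM against untreated cells. In each of these genes the 4 control CM libraries lay below the 4 PGE2 libraries, which held for 118 of all 5754 genes (2.05%). The genes were called from these same libraries, so this separation is no further support.

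Creg1 (chromosome 1, 165763746 to 165775308, plus strand, GRCm38) encodes a secreted glycoprotein of the endolysosomal system. Its level was 349, 333, 373 and 412 CPM in untreated libraries A to D and 677, 639, 676 and 790.3 CPM with PGE2. With control CM it was 352, 400.2, 339 and 303 CPM. All PGE2 libraries lay above those of the other groups, and control CM overlapped with untreated cells. The log2 difference of control CM from PGE2 was -0.99 ± 0.16 (SE, 95% interval -1.31 to -0.68, adjusted p = 3.40e-05). Against untreated cells Creg1 rose by 0.90 with PGE2 (adjusted p = 7.24e-06), and its difference was -0.098 with control CM (adjusted p = 0.832).

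Prdx1 (chromosome 4, 116685544 to 116700822, plus strand) encodes peroxiredoxin 1, a thiol enzyme that reduces hydrogen peroxide. Untreated libraries held 489, 689, 773 and 781 CPM and PGE2 libraries 1732, 1668, 1906 and 1785 CPM. Control CM libraries held 813, 859, 880.5 and 954 CPM. Control CM thus lay just above untreated cells and far below PGE2, with no overlap among the 3 groups. The log2 difference from PGE2 was -1.01 ± 0.16 (adjusted p = 0.000391), that is, Prdx1 was 2.02-fold lower with control CM. It rose by 1.31 with PGE2 (adjusted p = 7.92e-08), whereas the difference of control CM from untreated cells, 0.30, missed the threshold (adjusted p = 0.382).

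The promoters of Prdx1 and Gclm, both classical NRF2 target genes, are shown because the genes lower with control CM include members of that programme and these 2 windows hold a sequence of the antioxidant response element core. The windows are the 150 bases before the RefSeq start site on GRCm38.p6, chr4:116685449-116685598 for Prdx1 and chr3:122245407-122245556 for Gclm, both on the plus strand. Capitals mark the match to TGACNNNGC, here on the opposite strand.
Prdx1: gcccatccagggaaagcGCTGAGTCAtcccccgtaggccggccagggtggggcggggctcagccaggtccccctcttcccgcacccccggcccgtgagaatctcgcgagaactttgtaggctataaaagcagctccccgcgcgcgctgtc
Gclm: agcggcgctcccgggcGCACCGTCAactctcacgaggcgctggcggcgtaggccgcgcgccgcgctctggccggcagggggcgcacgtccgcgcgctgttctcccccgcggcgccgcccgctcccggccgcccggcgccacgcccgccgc
The match began 133 bases before the RefSeq start site in Prdx1 and 134 bases before it in Gclm. The GENCODE start of Prdx1 given above, 116685544, lies inside the printed window, so the distance holds for the RefSeq start only. The motif, chosen after the values were seen, was searched on both strands of RefSeq windows from 250 bases before to 50 bases after each start. It was found in 4071 of all 32851 windows (12.4%) and in 818 of 5584 windows of tested genes (14.6%). Of the 19 tested genes of the NRF2 list, 15 were in the promoter table with 18 windows, and 6 windows held the motif, those of Gclm, Nfe2l2, Prdx1, Sod1, Srxn1 and Txnrd1. Of the 5 genes lower with control CM, 4 were in the table, and the motif was found in Pgd and Prdx1 and not in the windows of Creg1 and Nqo1. A match describes letters in a window, and nothing about binding was measured here.

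Nqo1 (chromosome 8, 107388225 to 107403206, minus strand) encodes a quinone reductase and is among the most widely used reporters of NRF2 activity. Its level was 0, 15.3, 16.5 and 30.3 CPM in untreated cells, 108, 82.1, 75.8 and 70.1 CPM with PGE2 and 18.8, 21.1, 32.96 and 28.1 CPM with control CM. Every PGE2 library lay above those of the other groups, and control CM overlapped with untreated cells near the floor of 3 counts. Untreated library A, the shallowest of these, had no Nqo1 count, which allows a level of up to 52.4 CPM. The log2 difference was -1.70 ± 0.37 (95% interval -2.43 to -0.97, adjusted p = 0.0142), the only called gene past the log2 change of 1.5 that the labels give as the study's own threshold (0.0174% of genes). The call was lost without control CM library A, B or D or PGE2 library A, with log2 differences of -1.77 to -1.57 and adjusted p of 0.0561 to 0.0891. DESeq2 gave a log2 difference of -1.73 without an adjusted p, so Nqo1 was not called there.

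Pgd (chromosome 4, 149149991 to 149166771, minus strand) encodes 6-phosphogluconate dehydrogenase, an NADPH-producing enzyme of the pentose phosphate pathway. It stood at 69.8, 88.1, 95.8 and 78.7 CPM in untreated cells, 211, 246, 228 and 249 CPM with PGE2 and 141, 147, 98.9 and 125 CPM with control CM. Control CM lay between the other 2 groups and below all PGE2 libraries. The log2 difference from PGE2 was -0.86 ± 0.21 (adjusted p = 0.0453). Pgd was near the threshold: leaving out any 1 of the 8 libraries ended the call (log2 -0.93 to -0.77, adjusted p 0.0694 to 0.266), as did library totals (adjusted p = 0.0671), limma-voom (adjusted p = 0.0653) and no low-count filter (adjusted p = 0.0937).

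Abcc1 (chromosome 16, 14361558 to 14475737, plus strand) encodes MRP1, an ATP-driven exporter of glutathione conjugates and of the lipid mediator leukotriene C4. Its level was 52.4, 30.6, 49.6 and 36.3 CPM in untreated cells, 114, 121, 148 and 70.1 CPM with PGE2 and 51.7, 63.2, 61.2 and 31.3 CPM with control CM. The highest control CM library lay under the lowest PGE2 library by a small margin. The log2 difference was -1.21 ± 0.29 (adjusted p = 0.0453), and leaving out any library other than PGE2 library D ended the call (log2 -1.34 to -0.99, adjusted p 0.0697 to 0.411). Library totals (adjusted p = 0.0671), limma-voom (adjusted p = 0.0666) and no low-count filter (adjusted p = 0.0614) ended it too. In the Ptgs-deficient CM group Abcc1 was at 58.2, 97.6, 59.9 and 105 CPM, with libraries B and D above every control CM library.

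**Figure D1:**
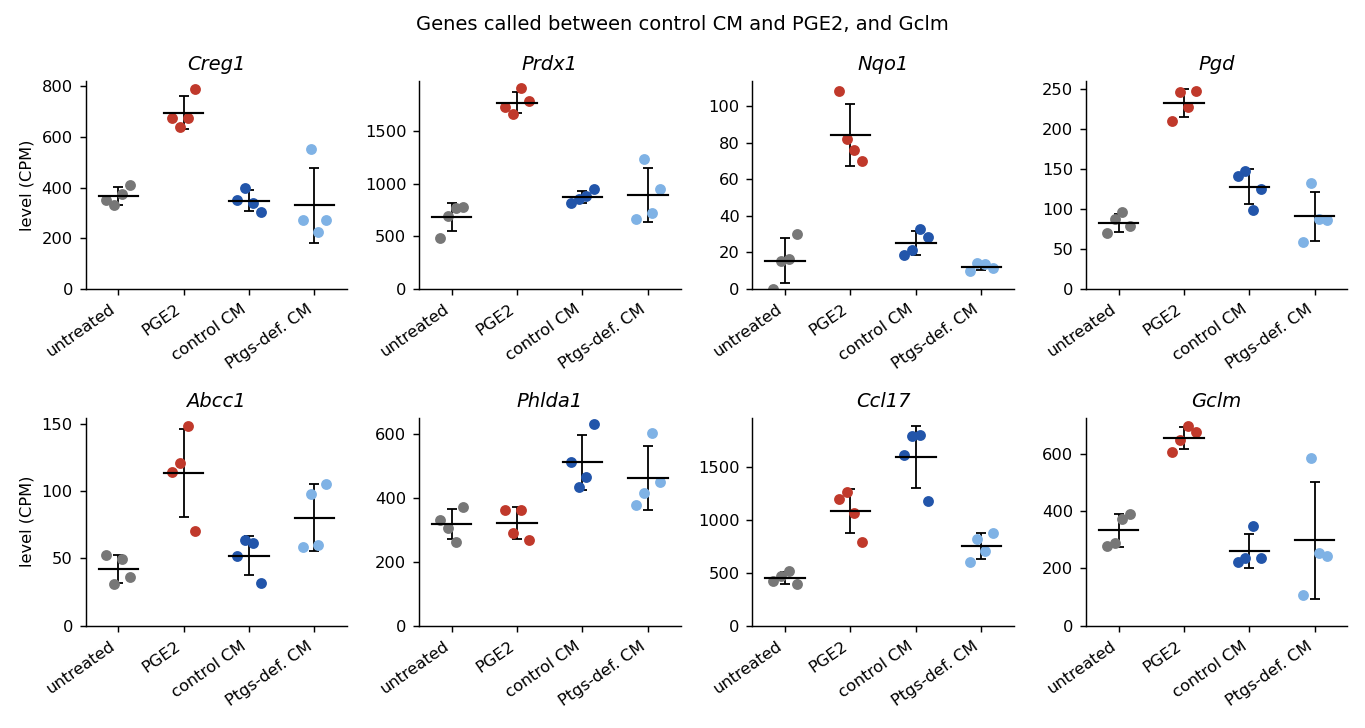
Level in CPM (linear axis from 0) of the 7 genes called between control CM and PGE2, and of Gclm, which was not called, in untreated, PGE2, control CM and Ptgs-deficient CM cells at 4 h, with 1 point per library, the mean as a line and the SD as error bars (n = 4). In Creg1, Prdx1, Nqo1, Pgd, Abcc1 and Gclm every PGE2 library lies above every control CM library, while Ccl17 and Phlda1 are highest on average with control CM.

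The 5 genes were also lower with control CM than in the second set of PGE2 libraries. Against the 8 libraries with PGE2 and an EP1 or EP3 antagonist, 23 genes were called (0.4%), 9 higher (0.156%) and 14 lower (0.243%) with control CM. The log2 difference was -1.17 for Creg1, -1.05 for Prdx1, -1.65 for Nqo1, -0.82 for Pgd and -1.22 for Abcc1, with adjusted p from 8.94e-10 to 0.00367. The other genes called lower there were chosen by that test after the values were seen. They include Hmox1 (-1.76 ± 0.33, adjusted p = 0.000343), which encodes the haem-degrading enzyme heme oxygenase 1, and Blvrb (-1.43 ± 0.27), which encodes biliverdin reductase B. Cat, the catalase gene (-1.01 ± 0.21), Gclm, the modifier subunit of the enzyme that limits glutathione synthesis (-1.45 ± 0.27), and Prdx6, another peroxiredoxin (-0.51 ± 0.12), were lower as well. So were Cyb5a (-0.88), cytochrome b5, Esd (-0.95), S-formylglutathione hydrolase, and Psma5 (-0.55), a proteasome subunit. Ftl1-ps1 (-0.90) shares sequence with the ferritin light chain gene Ftl1, so its reads cannot be assigned with certainty. Without EP3 antagonist library B, which stood apart, 41 genes were called (21 higher and 20 lower). The control CM libraries are the same in both comparisons, so they are not independent of each other.

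Against PGE2 alone, these further genes had differences below 0 and were not called in the main model. Of 18 alternatives, Gclm was called in 4 (adjusted p 1.57e-15 to 0.330) and Esd in 5 (4.2e-11 to 0.258). Cyb5a was called in 4 (0.00256 to 0.381) and Clec4d in 3 (0.000364 to 0.602). Hmox1 was called in 0 of 17. Gclm was at 606, 648, 696 and 676 CPM with PGE2 and 221, 236, 348 and 234 CPM with control CM, against 279, 287, 373 and 391 CPM in untreated cells. All control CM libraries lay below all PGE2 libraries, and the difference was -1.35 ± 0.30 (adjusted p = 0.065). Esd (-1.05 ± 0.23) and Cyb5a (-0.60 ± 0.15) both had an adjusted p of 0.0648, with all control CM libraries lower. Hmox1 was at 32.5, 47.5, 89.04 and 70.1 CPM with PGE2 and 14.1, 33.7, 23.5 and 28.1 CPM with control CM, with a difference of -1.27 ± 0.40 (adjusted p = 0.339). Clec4d, the C-type lectin MCL, was at 129.9, 95.04, 132 and 82.9 CPM and 18.8, 33.7, 47.1 and 46.9 CPM respectively, a log2 difference of -1.57 ± 0.42 that missed the threshold (adjusted p = 0.19) although the libraries did not overlap. Clec4d was picked after its values were seen.

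In the NRF2, iron and redox list, 25 genes were listed and 19 tested: 2 were called lower with control CM (Prdx1 and Nqo1), none higher, and 17 did not pass. The tested members lay below 0 in 15 cases and above 0 in 4, beside 2831 of 5754 genes below 0 overall (49.2%), and 10 of the 19 had an unadjusted p under 0.05, all lower (2.61% of all genes). Their median log2 difference was -0.51 against 0.0056 for all genes. The list, like the other lists below, was chosen with earlier results of these data known. Its comparison with all genes is therefore a description. In 5 of the 19 no control CM library reached the lowest PGE2 library, which held for 2.05% of all genes. The median stayed between -0.55 and -0.41 under every alternative processing that was run. Against untreated cells the list had a median of 0.99 with PGE2, where 10 members were called higher and 2 lower (5.21% and 3.35% of all genes). With control CM the median was 0.34, with 5 called higher and 2 lower (4.81% and 2.75% of all genes). With Ptgs-deficient CM it was -0.0031 with no member called by edgeR, where 5 of all genes were (0.0869%, of which 4 were higher, 0.0695%) and 359 had an unadjusted p under 0.05, and DESeq2 called 3 of all genes. Without the 2 libraries B the median was -0.15, and edgeR called no gene for Ptgs-deficient CM, with 313 at an unadjusted p under 0.05.

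Other members of the list, named after their values were seen, had differences below 0 without passing the test. The ferritin heavy chain gene Fth1, which stores iron, was at 46732, 43684, 42553 and 47177 CPM with PGE2 and 31186, 33386, 31213 and 30372 CPM with control CM (difference -0.51 ± 0.19, adjusted p = 0.682). Its groups did not overlap. Fth1 was called in 2 of 18 alternatives, with only the compared groups in the model and without the 2 libraries B, with adjusted p from 6.1e-11 to 0.836 over all 18. Ftl1 had a difference of -0.70, Srxn1, which repairs oxidised peroxiredoxins, -0.64, and Sqstm1, the autophagy receptor p62, -0.56. The superoxide dismutase gene Sod1 differed by -0.32 and its mitochondrial counterpart Sod2 by -0.06. The transcription factor's own transcript, Nfe2l2, lay on the other side, with 114, 77.8, 65.95 and 70.1 CPM with PGE2 and 75.2, 114, 165 and 84.4 CPM with control CM (0.42 ± 0.31, adjusted p = 0.954), and its groups overlapped. The mitochondrial peroxiredoxin Prdx5 (0.22), Gpx1 (0.16) and Mt1 (0.10) were the other members above 0.

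**Figure D2:**
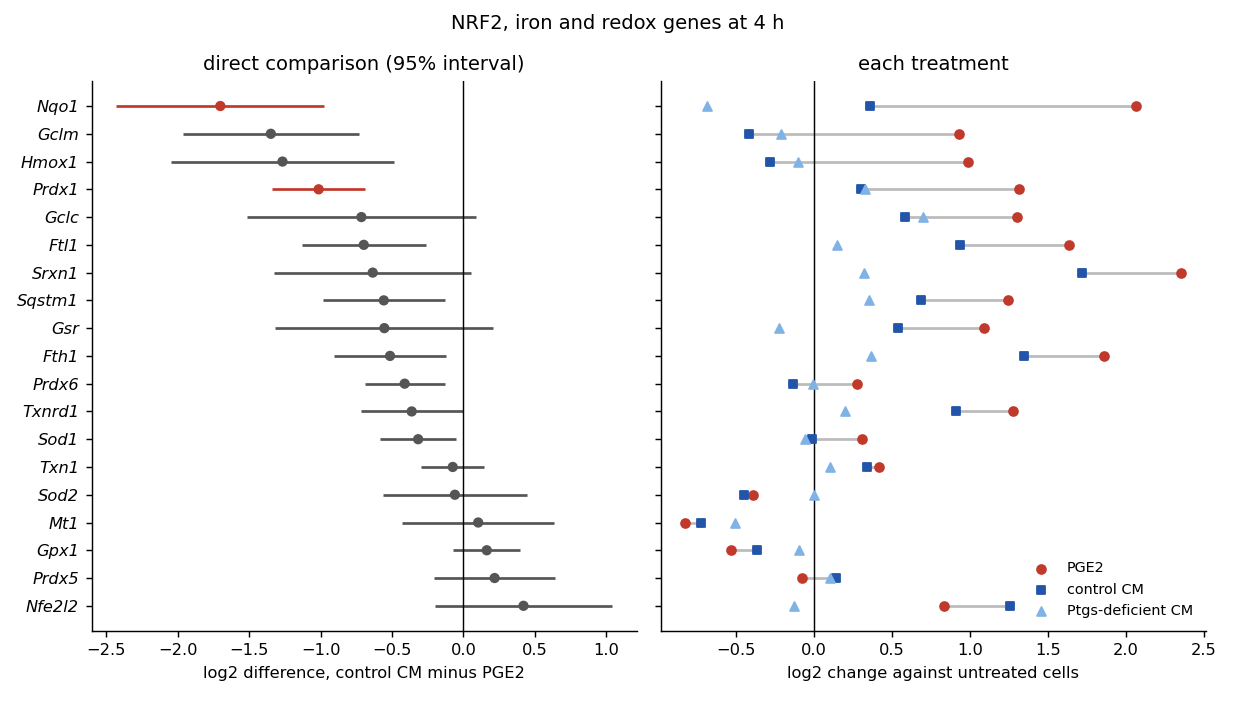
The 19 tested genes of the NRF2, iron and redox list: on the left the log2 difference of control CM from PGE2 with 95% intervals (called genes in red), on the right the log2 change of PGE2, control CM and Ptgs-deficient CM from untreated cells. On the left Nqo1 and Prdx1 passed the test, 15 points lie below 0, and Nfe2l2, Prdx5, Gpx1 and Mt1 lie above it.

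Higher with control CM were Ccl17 and Phlda1. Ccl17 (chromosome 8, 94810453 to 94812036, plus strand) encodes the chemokine that attracts CCR4-bearing T cells, including regulatory T cells. It was at 419, 475, 519 and 391 CPM in untreated cells, 1196, 1270.1, 1068 and 797 CPM with PGE2 and 1621, 1795, 1808 and 1179 CPM with control CM. Both treatments lay above untreated cells in every library, and control CM library D fell within the PGE2 range. The difference of control CM from PGE2 was 0.55 ± 0.13 (95% interval 0.29 to 0.81, adjusted p = 0.0453), and against the second set of PGE2 libraries 0.83 ± 0.11 (adjusted p = 2.85e-08). Against untreated cells Ccl17 rose by 1.26 with PGE2 (adjusted p = 9.29e-12) and by 1.81 with control CM (adjusted p = 2.91e-20). It also rose with Ptgs-deficient CM, to 599, 823, 709 and 882 CPM (0.72, adjusted p = 0.00496). Without Ptgs-deficient CM library B that call was lost at a similar size (0.67, adjusted p = 0.195), as it was without untreated library D (0.63, adjusted p = 0.195). The call against PGE2 alone was lost without control CM library A, B or C or PGE2 library A, C or D (log2 0.44 to 0.60, adjusted p 0.0545 to 0.318). It was also lost with limma-voom (adjusted p = 0.148), with no low-count filter (adjusted p = 0.125) and without the 2 shallow libraries (adjusted p = 0.115).

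Phlda1 (chromosome 10, 111506286 to 111508645, plus strand) encodes a pleckstrin-homology-like protein that is induced by growth factor and stress signalling. It was at 332, 306, 261 and 372 CPM in untreated cells, 363, 289, 363 and 268 CPM with PGE2 and 512, 434, 466 and 632 CPM with control CM. PGE2 overlapped with untreated cells, and every control CM library lay above both groups, as held for 91 of 5754 genes against PGE2 (1.58%). Phlda1 was called from these same libraries, so its separation from PGE2 is no further support. The difference from PGE2 was 0.67 ± 0.15 (95% interval 0.37 to 0.97, adjusted p = 0.0326) and that from the second PGE2 set 0.64 ± 0.13 (adjusted p = 0.00083). Against untreated cells Phlda1 rose by 0.70 with control CM (adjusted p = 0.000394), and the difference with PGE2 was 0.035 (adjusted p = 0.948). With Ptgs-deficient CM it was at 379, 415, 603 and 450.3 CPM, also above every untreated library, but the difference of 0.53 missed the threshold (adjusted p = 0.315). The call against PGE2 was lost without control CM library A or D or PGE2 library A, B or D (log2 0.54 to 0.73, adjusted p 0.0545 to 0.400), with limma-voom (adjusted p = 0.0653) and with no low-count filter (adjusted p = 0.125).

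Of the genes called higher against the second PGE2 set, named after their values were seen, Axl, a receptor tyrosine kinase that binds dying cells through GAS6, differed by 0.96 ± 0.21 (adjusted p = 0.00337), beside 0.72 against PGE2 alone (adjusted p = 0.478). Capg, an actin-capping protein, differed by 1.12 ± 0.22, and Ccnd1, cyclin D1, by 0.53 ± 0.11, both with an adjusted p of 0.00114. Their differences from PGE2 alone were 0.93 and 0.45 and were not called.

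No cDC1 identity gene was called between control CM and PGE2, yet most lay on the control CM side. Of 24 listed genes 22 were tested, 16 were above 0 and 6 below, 4 had an unadjusted p under 0.05 and were higher (2.83% of all genes), and the median log2 difference was 0.20. Irf8, the lineage transcription factor, was at 4836, 4879, 4924 and 5263 CPM in untreated cells, 3145, 2691, 2770.0 and 3002 CPM with PGE2 and 3796, 3526, 4073 and 3643 CPM with control CM. Its libraries did not overlap between the 2 treatments, with a difference of 0.37 ± 0.11 (adjusted p = 0.195). It passed under library totals in place of TMM scaling and when only the compared groups were fitted, with adjusted p from 0.00122 to 0.873 over 18 alternatives, and it was higher than in the second PGE2 set (0.46 ± 0.091, adjusted p = 0.00083).

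Xcr1, the chemokine receptor that defines cDC1, was at 141, 112, 148 and 127 CPM with PGE2 and 263, 181, 198 and 169 CPM with control CM, without overlap (0.59 ± 0.27, adjusted p = 0.837). Id2, a repressor needed for the lineage and named after its values were seen, differed by 0.25 ± 0.10 (adjusted p = 0.721) and did not overlap either. Batf3 was at 48.7, 82.1, 36.3 and 70.1 CPM with PGE2 and 70.5, 131, 80.05 and 71.9 CPM with control CM, overlapping, with library B high among the latter (0.61 ± 0.30, adjusted p = 0.88). Clec9a, the receptor for actin of dead cells, was low at 81.2, 21.6, 23.1 and 38.2 CPM and 9.40, 21.1, 18.8 and 43.8 CPM respectively (-0.62 ± 0.46, adjusted p = 0.954). Plet1, a membrane protein of cultured cDC1, was at 6344, 5996, 6397 and 6444 CPM with PGE2 and 6742, 6875, 5782 and 6901 CPM with control CM, overlapping (0.063 ± 0.22). Against untreated cells the list had a median of -0.76 with PGE2 (2 higher and 12 lower called, beside 5.21% and 3.35% of all genes), and -0.60 with control CM (2 higher and 9 lower called, beside 4.81% and 2.75%).

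No gene of the cyclic AMP programme was called between the treatments. Of 27 listed cAMP and CREB feedback genes 13 were tested, 4 lay above 0 and 9 below, and the median was -0.048. Against untreated cells the median was 1.78 with PGE2 (9 higher, 1 lower called, beside 5.21% and 3.35% of all genes) and 1.74 with control CM (9 higher, 2 lower called, beside 4.81% and 2.75%). Crem, which encodes the inducible cAMP early repressor, was at 17.5, 0, 9.91 and 6.06 CPM in untreated cells, 206, 238, 208 and 140.2 CPM with PGE2 and 258, 177, 207 and 128 CPM with control CM. Both treatments lay far above untreated cells and overlapped, with a difference of -0.089 ± 0.34 (95% interval -0.79 to 0.62, adjusted p = 0.994). The phosphodiesterase Pde4b, which degrades cAMP, differed by -0.45 ± 0.23 (95% interval -0.91 to 0.0093), the G protein regulator Rgs2 by -0.48 ± 0.27 (-1.02 to 0.055) and the nuclear receptor Nr4a2 by -0.20 ± 0.38 (-0.95 to 0.56), none of them called. These intervals still allow differences of close to 1 on the log2 scale, so equality was not shown.

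Narrower bounds came from abundant PGE2-responsive transcripts. Ifitm1, an interferon-induced membrane protein gene, was at 1990.2, 1804, 2148 and 2029 CPM in untreated cells, 6506, 6083, 6144 and 6399 CPM with PGE2 and 6314, 5632, 5853 and 5819 CPM with control CM. The treatments overlapped, and their difference was -0.089 ± 0.11 (95% interval -0.30 to 0.12). Its neighbours Ifitm2 (-0.027 ± 0.13) and Ifitm3 (0.02 ± 0.19) differed as little. These paralogs are similar in sequence, and reads could be split between them.

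Among receptors and enzymes of the prostanoid pathway, 8 of 22 listed genes were tested and none was called, with a median of 0.000136. Ptger2, the EP2 gene, was at 16.2, 38.9, 23.1 and 63.7 CPM with PGE2 and 51.7, 33.7, 75.3 and 37.5 CPM with control CM (0.52 ± 0.41), and Ptger3, the EP3 gene, differed by -0.0039 ± 0.43. Ptger4, the EP4 gene, had too few counts to be tested. The cells' own cyclooxygenase gene Ptgs1 differed by -0.16 ± 0.21 and Hpgds, the PGD2 synthase gene, by 0.14 ± 0.32.

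Ccl17 stood alone among the chemokines and cytokines: 12 of 32 listed genes were tested, and it was the 1 called. The list's median was -0.034. Ccl22, the other CCR4 ligand, was at 281, 181, 228 and 166 CPM with PGE2 and 268, 236, 240.1 and 150.1 CPM with control CM, overlapping (0.029 ± 0.20, adjusted p = 0.996). Cxcl16 differed by 0.20 ± 0.14, the IL-12 subunit Il12b by 0.068 ± 0.53 and the inflammatory cytokine Il1b by -0.24 ± 0.27. Il1b was uneven, at 189, 129.6, 119 and 121 CPM with PGE2 and 132, 135, 127 and 81.3 CPM with control CM.

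Maturation and costimulation genes (12 tested of 24, 0 called, median -0.0078) were likewise not separated. Cd83, a maturation marker, was at 105, 72.8, 89.2 and 69.6 CPM in untreated cells, 352, 289, 336 and 229 CPM with PGE2 and 446, 371, 400.2 and 356 CPM with control CM. Every control CM library lay above every PGE2 library, but the difference of 0.36 ± 0.18 was not called (adjusted p = 0.898). The migration receptor Ccr7 differed by -0.045 ± 0.24 and overlapped. MHC class II presentation had 12 tested genes, 0 called and a median of 0.060. MHC class I presentation had 15 tested, 0 called and a median of -0.023.

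The remaining lists gave small medians and few calls. NF-kB subunits and targets had 23 tested genes, 16 below 0, 0 called and a median of -0.15. The AP-1, EGR and serum response list had 16 tested, 1 called higher, Phlda1, and a median of 0.073. Cytokine receptor feedback and STAT targets had 23 tested, 1 called higher, Ccl17, which is in that list too, and a median of 0.029. Its member Cish, a feedback inhibitor of STAT5 signalling, differed by -0.13 ± 0.19, and Socs2 was at 64.95, 38.9, 39.6 and 38.2 CPM with PGE2 and 32.9, 29.5, 14.1 and 21.9 CPM with control CM, lower in every library yet not called (-0.86 ± 0.47, adjusted p = 0.898).

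Metabolic and stress lists held no called gene outside the NRF2 list. The medians were 0.16 for ribosome biogenesis (20 tested), 0.11 for cholesterol and fatty acid synthesis (19), 0.054 for glycolysis, hypoxia and lactate (16), 0.064 for lysosome and TFEB targets (24), -0.13 for LXR, PPAR and lipid handling (12), -0.14 for amino acid and integrated stress (14) and -0.10 for heat shock and ER stress (22). Interferon-stimulated genes (21 tested, 14 below 0) had a median of -0.059 and TGF-beta and SMAD targets (16 tested) one of 0.031. BCL2 family and apoptosis (19 tested) stood at -0.026, actin, adhesion and migration (31) at 0.034 and proliferation (27) at 0.010. The 6 tested transcripts of the mitochondrial genome, a rough measure of cell state and RNA quality, had a median of -0.028, with summed levels of 3767 to 4000 CPM with PGE2 and 3448 to 4421 CPM with control CM.

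**Figure D3:**
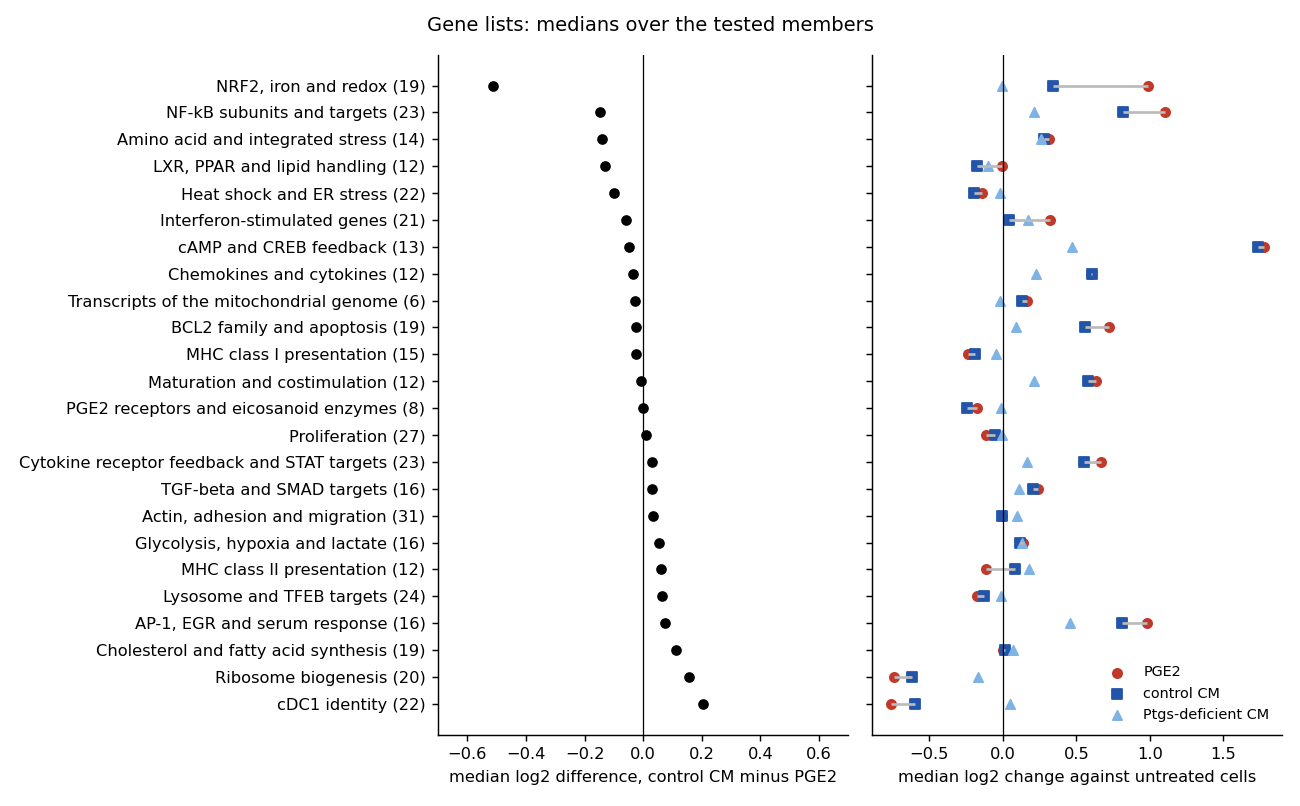
Medians over the tested members of each list (number in brackets): on the left of the log2 difference of control CM from PGE2, on the right of the log2 change of PGE2, control CM and Ptgs-deficient CM from untreated cells. On the left the NRF2, iron and redox list has a median of -0.51 and the cDC1 identity list one of 0.20.

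Genes chosen by their PGE2 response in other libraries gave a wider view. Against untreated cells, PGE2 with an EP1 or EP3 antagonist had 643 called genes (11.2%), 336 higher (5.84%) and 307 lower (5.34%), and those with a log2 change of at least 1 formed a list of 191 raised and 124 lowered genes, chosen without the control CM and PGE2 libraries. Without the 2 libraries B these were 718 called genes (379 higher and 339 lower) and lists of 209 and 156, with medians of -0.15 and 0.15 for control CM against PGE2 when only EP3 antagonist library B was left out of the choice. Of the 191 raised genes, 119 were lower and 72 higher with control CM than with PGE2, 5 were called lower, namely Abcc1, Creg1, Nqo1, Pgd and Prdx1, and none was called higher. All control CM libraries were below all PGE2 libraries in 23 of the 191 and above them in 2, beside 2.05% and 1.58% of all genes. The median difference was -0.16 (quartiles -0.38 and 0.14), beside 0.0056 for all genes.

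Of the 124 lowered genes, 79 were higher and 45 lower with control CM, none was called, and the median difference was 0.17 (quartiles -0.20 and 0.50). Both medians lay on the side of a smaller response to control CM. The lists were chosen for their response to PGE2, which favours genes that respond more to PGE2 than to control CM. A lean to this side can follow from that choice alone. No list was chosen by the response to control CM. With the genes called for PGE2 at 24 h as the list (4.74% of genes higher and 3.22% lower), the median for raised genes was -0.033 and for lowered genes 0.074, both nearer to 0.

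Several named members of the 2 lists were read singly. Clec7a, the beta-glucan receptor dectin-1, was at 34.9, 3.83, 9.91 and 0 CPM in untreated cells, 189, 225, 188 and 127 CPM with PGE2 and 136, 177, 151 and 134 CPM with control CM. The treatments overlapped, with a difference of -0.31 ± 0.38. Ctla2a, a cathepsin inhibitor, differed by -0.098 ± 0.34, Sdcbp2, a syntenin, by -0.17 ± 0.35, and Rgs9 by 0.80 ± 0.55. Cd180, a TLR4-like receptor, was near the floor at 5.41, 0, 16.5 and 6.37 CPM with PGE2 and 9.40, 0, 4.71 and 3.13 CPM with control CM (-0.87 ± 0.92). None was called.

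**Figure D4:**
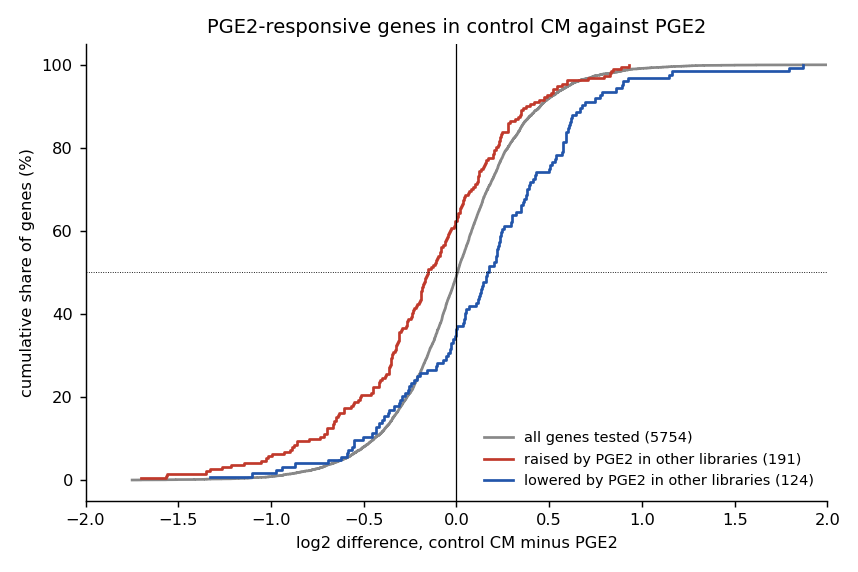
Cumulative share of genes in percent (vertical axis) by log2 difference of control CM from PGE2 (horizontal axis, shown from -2 to 2) for the 5754 tested genes and for the 191 genes raised and the 124 lowered by PGE2 in the EP1 and EP3 antagonist libraries. The curves cross the dotted line at 50% at medians of -0.16 for raised and 0.17 for lowered genes.

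A PGE2 response score was set from the same 2 lists, as the mean log2 level of raised genes minus that of lowered genes, with the mean of untreated libraries at 0% and that of PGE2 libraries at 100%. PGE2 libraries A to D stood at 98.1, 104, 99.8 and 97.9%. Control CM libraries stood at 89.0, 92.0, 93.6 and 85.5%, a mean of 90.0 ± 3.55% (SD, n = 4), all below the lowest PGE2 library. Untreated libraries ranged from -2.79 to 1.90%. Ptgs-deficient CM libraries A, C and D stood at 15.2, 19.7 and 21.2% and library B at 63.7%. The EP1 antagonist group ranged from 100.1 to 111%, and EP3 antagonist libraries A, C and D from 104 to 108% with library B at 62.9%. The EP4 antagonist group ranged from 91.2 to 96.8% and the EP2 antagonist group from 70.4 to 76.2%. Control CM thus overlapped with the EP4 antagonist group and lay above the EP2 antagonist group. The score is a description, since its genes were chosen for their response to PGE2 against the same untreated libraries that set 0%. They were also chosen in the EP1 and EP3 antagonist libraries, which can raise the scores of those groups. The scores of those groups above 100% are therefore not comparable with those of the other groups. Choosing the genes by their response to PGE2 can likewise place control CM below 100%. With the genes chosen without the 2 libraries B, control CM stood at 86.2 to 94.3% (mean 90.5%) and PGE2 at 96.7 to 104%.

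**Figure D5:**
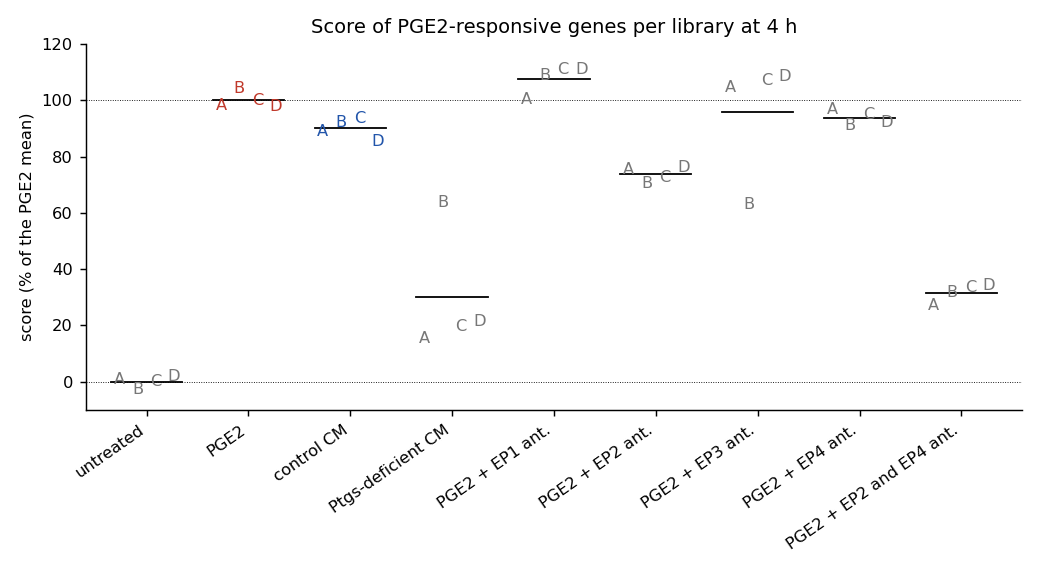
PGE2 response score in percent (untreated mean at 0, PGE2 mean at 100, both dotted) for each of the 36 libraries at 4 h, drawn as its replicate letter, with a line at the group mean; in the group titled with EP2 and EP4 antagonists, the treatment label names another pair of compounds. Control CM libraries lie at 85.5 to 93.6%, below the PGE2 libraries, and Ptgs-deficient CM library B and EP3 antagonist library B lie away from their groups.

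The effect of the melanoma cells' Ptgs genes was then set against the effect of pure PGE2, as the difference of control CM from Ptgs-deficient CM minus that of PGE2 from untreated cells. The difference of control CM from Ptgs-deficient CM alone had 227 called genes (3.95%), 140 higher (2.43%) and 87 lower, and 120 higher and 121 lower under library totals. Without the 2 libraries B it had 325 (199 higher and 126 lower). In the contrast with PGE2, 3 of 5754 genes were called (0.0521%), all lower, among them Prdx1 and Abcc1. The values were -1.34 ± 0.23 for Prdx1 (adjusted p = 0.00276) and -2.21 ± 0.44 for Abcc1 (adjusted p = 0.00276), and 349 genes had an unadjusted p under 0.05. Ptgs-deficient CM library B enters this contrast, and without it and EP3 antagonist library B the calls numbered 2, Prdx1 and Abcc1. Leaving out 1 library at a time gave 1 to 7 calls, with the fewest without control CM library D or PGE2 library C and the most without Ptgs-deficient CM library C.

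In Prdx1 the Ptgs-deficient CM libraries held 666, 1234, 723 and 953 CPM, so their range took in that of control CM. Abcc1 ranged from 58.2 to 105 CPM with Ptgs-deficient CM and from 31.3 to 63.2 CPM with control CM, with overlap. For Ccl17 the same contrast was -0.17 ± 0.19 (adjusted p = 0.983), and for Nqo1 -1.02 ± 0.69 (adjusted p = 0.918).

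Conditioned medium was compared with PGE2 at 4 h only, and at 24 h the same genes were read in PGE2 and untreated libraries. Prdx1 had a mean of 575 CPM in untreated cells and 540.2 CPM with PGE2 (-0.10 ± 0.1, adjusted p = 0.66, where 7.97% of 5273 genes were called). Creg1 had means of 266 and 338 CPM (0.36 ± 0.14, adjusted p = 0.0997). Nqo1 had too few counts to be tested at 24 h.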

How the data were processed

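Bulk 3′ RNA libraries with molecular identifiers were made from sorted cDC1 by a Drop-seq-style protocol and sequenced on a NextSeq 500, per the labels' protocols. The deposited values are UMI counts, in whole numbers per gene and library, made by the authors with the Drop-seq pipeline on GRCm38 with Ensembl release 75, per the labels' protocols; the submitters' processing notes name GRCm38.p6 and DESeq2 1.14.1, while the sources used here name neither the aligner nor the strand setting. Of 23136 lines, 1 with text in place of counts was left out, and 20 whose symbols a spreadsheet had turned into dates (0.105% of counts) were kept and not named.

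Groups came from titles. Genes were filtered by group (edgeR's filterByExpr), scaled by TMM and tested with the robust quasi-likelihood test of edgeR 4.0.16 in R 4.3.3, in 1 model of the 36 libraries in 9 groups at 4 h (5754 genes). The 16 libraries at 24 h were fitted separately (5273 genes). P-values were adjusted by the Benjamini-Hochberg method over all tested genes. Intervals are 95% intervals of the model. CPM are relative to the counts of tested genes, TMM-adjusted, and intervals, floors and errors cover only the libraries at hand. The score used log2 CPM with 2 prior counts. Counts of the 12 pairs of libraries within the control CM and PGE2 groups differed by more than counting noise (chi-square per degree of freedom 1.38 to 1.74). Scripts were tested on simulated counts with known changes. Named genes were all called genes, called members of each list, the called genes of the Ptgs contrast and a fixed set of genes with known roles in cDC1 or the PGE2 response, with other names marked as chosen after their values were seen; 1 gene called in the Ptgs contrast is not reported here. The members and the gene lists were chosen with earlier results of these data known. Alternatives were library totals, DESeq2 size factors, DESeq2 1.42.0, limma 3.58.1 with voom, other count filters, fewer groups in the model and left-out libraries. Gene positions are from GENCODE vM21 on GRCm38.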

Additional observations from a re-analysis of the deposited data

Results flagged for a closer look

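In 117 groups of 4 libraries, 11 held a library whose gap to its nearest neighbour was a larger part of the group's range than Dixon's critical value for 4 values, and chance alone gives about 1 in 20 such groups. Among control CM libraries, Batf3 was at 131 CPM in library B (70.5 to 80.05 in the others), Plet1 at 5782 CPM in library C (6742 to 6901), Il1b at 81.3 CPM in library D (127 to 135) and Gclm at 348 CPM in library C (221 to 236). Among PGE2 libraries, Rgs2 was at 63.7 CPM in library D (98.9 to 104), Il1b at 189 CPM (119 to 129.6) and Socs2 at 65.0 CPM (38.2 to 39.6) in library A, Ftl1 at 207 CPM in library B (227 to 231) and Sod1 at 666 CPM in library A (579 to 594). The PGE2 score was 62.9% in EP3 antagonist library B (104 to 108% in the others) and 63.7% in Ptgs-deficient CM library B (15.2 to 21.2%).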

How the results depend on the processing

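None of the 7 called genes changed sign between control CM and PGE2, nor did the medians of the NRF2 list and the PGE2-responsive lists, while 13 of 95 named genes that were not called had values on both sides of 0. The 7 calls between control CM and PGE2 became 11 with the replicate letter as a block (replicate block, 2 higher and 9 lower, with Blvrb, Cyb5a, Esd and Gclm added), 22 with only the compared groups in the model and 4 with limma-voom (Creg1, Nqo1 and Prdx1 among them). Alternatives chosen after seeing the data gave 17 without the 2 libraries B that lay apart, 23 against PGE2 with an EP1 or EP3 antagonist and 41 against these without EP3 library B. DESeq2 called 10, without Nqo1, to which it gave no adjusted p, and leaving out 1 library at a time gave 2 to 5. Creg1 and Prdx1 were called under all 18 alternatives. The 3 calls of the Ptgs contrast became 9 with no low-count filter, 5 with the stricter filter, 6 with the replicate block, 7 with only the compared groups and 1 to 7 with 1 library left out. The 5 calls of Ptgs-deficient CM against untreated cells became 3 with DESeq2 and 0 without the 2 libraries B (313 at an unadjusted p under 0.05). The median of the NRF2 list was -0.51 to -0.43 with 1 library left out. The median of raised PGE2-responsive genes moved to -0.033 with the 24 h list and -0.126 with library totals, and to between -0.14 and -0.12 with 1 library left out. That of lowered genes moved to 0.29 at a log2 limit of 1.5 and 0.074 with the 24 h list, and to between 0.10 and 0.21 with 1 library left out. With fewer libraries in the model some counts of calls rose and others fell, and the cause was not tested. Fth1 had a log2 difference of -0.51 in the main model and -0.52 without the 2 libraries B. Its adjusted p was 0.682 and 0.000381 respectively. Same-letter libraries of control CM and PGE2 did not visibly deviate together (correlations of -0.0066 to 0.033 over genes, with 2 of 4 libraries correlating best with their own letter). Counting noise at this depth can hide a shared deviation, so pairing was not excluded. The letters were not taken as pairs in the main model, and with the replicate block Ccl17 had an adjusted p of 0.00371. Genes under the floor of 3 counts could not be compared.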
